A study of Rattus norvegicus with 20 samples.

Results

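The 6 genes Mapk3 (ENSRNOG00000053583), Ppp3r1 (ENSRNOG00000043210), Ppp3ca (ENSRNOG00000009882), Ppp1r3b (ENSRNOG00000011474), Pld2 (ENSRNOG00000019604) and Flot2 (ENSRNOG00000009681) were followed among the 32883 genes measured in the choroid plexus of 20 female Zucker rats at 16 weeks of age. They were chosen from the genes that the study, on its read counts, called differentially expressed between testosterone-treated obese rats and lean control rats. The study discusses Mapk3, Ppp3r1, Ppp1r3b, Pld2 and Flot2 as possible modulators of cerebrospinal fluid secretion, and Ppp3ca, from the same set of called genes, was added here as the catalytic partner of Ppp3r1. The untreated cohort held 6 lean and 6 obese rats. The injected cohort held 4 obese rats given testosterone propionate in sesame oil under the skin over several weeks (obese + TT) and 4 lean rats given the oil alone (lean control). Obese Zucker rats are homozygous for the fa allele of the leptin receptor (fa/fa), and the lean rats of the study were heterozygous (+/fa). The allele is present in every tissue, the estrous cycle was not controlled, and no obese rat received oil alone, so in the injected cohort genotype and testosterone cannot be told apart. Each library came from the choroid plexus of 1 rat, so the errors below are spreads between animals.

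Mapk3 encodes ERK1, one of the terminal kinases of the ERK cascade, which is switched on by the MEK kinases that Map2k1 and Map2k2 encode. Ppp3ca and Ppp3r1 encode the catalytic alpha subunit and the regulatory B subunit of calcineurin, the calcium- and calmodulin-activated phosphatase that dephosphorylates NFAT transcription factors. Ppp1r3b encodes a regulatory subunit that brings protein phosphatase 1 to glycogen, where it favours glycogen synthesis. Pld2 encodes phospholipase D2, which cleaves phosphatidylcholine into phosphatidic acid and choline at the plasma membrane, and Flot2 encodes flotillin-2, a scaffold protein of cholesterol-rich membrane domains. The choroid plexus epithelium secretes most of the cerebrospinal fluid, and phosphorylation is one of the known ways in which its ion transporters are regulated.

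The start regions of 4 of the 6 genes were found in the RefSeq promoter table (build GRCr8) and are shown for the calcineurin pair, which makes 1 enzyme, and for Pld2 and Flot2, which both lie on chromosome 10 and differed in opposite directions in the injected cohort. Each window holds the 200 bases from 250 to 51 bases upstream of the annotated start, on the + strand, written 5′ to 3′, and capitals mark the GC box GGGCGG or its reverse complement CCGCCC.
Ppp3r1, chr14:95769596-95769795: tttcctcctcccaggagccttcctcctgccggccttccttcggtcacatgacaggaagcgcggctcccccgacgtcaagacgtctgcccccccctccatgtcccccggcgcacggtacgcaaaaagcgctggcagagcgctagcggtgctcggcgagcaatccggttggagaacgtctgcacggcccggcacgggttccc
Ppp3ca, chr2:227839357-227839556: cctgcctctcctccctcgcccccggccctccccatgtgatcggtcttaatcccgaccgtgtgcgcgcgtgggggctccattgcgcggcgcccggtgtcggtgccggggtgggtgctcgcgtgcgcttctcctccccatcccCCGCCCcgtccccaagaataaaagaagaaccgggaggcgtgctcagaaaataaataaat
Pld2, chr10:55754746-55754945: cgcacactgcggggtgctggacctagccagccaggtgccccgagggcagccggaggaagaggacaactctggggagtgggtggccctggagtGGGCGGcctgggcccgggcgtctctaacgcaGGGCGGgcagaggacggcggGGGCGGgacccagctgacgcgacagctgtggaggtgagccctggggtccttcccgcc
Flot2, chr10:63423850-63424049: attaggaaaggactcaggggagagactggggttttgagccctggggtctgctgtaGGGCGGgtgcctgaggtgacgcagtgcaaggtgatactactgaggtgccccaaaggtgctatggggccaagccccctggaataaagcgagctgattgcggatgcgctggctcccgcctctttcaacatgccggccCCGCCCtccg
The Pld2 window held 3 GC boxes, that of Flot2 held 2, that of Ppp3ca held 1 and that of Ppp3r1 held 0, whereas 24.2% of 33469 promoter windows of this length held at least 1. The GC content was 73.5% for Pld2, 67.5% for Ppp3r1, 65.5% for Ppp3ca and 61.5% for Flot2, and its median over all windows was 51%. The androgen receptor half-site AGAACA was searched on both strands, since testosterone acts through that receptor. It was in none of the 4 windows, and 14.2% of all windows held it. The CCAAT box CCAAT (28.8% of all windows), the cyclic AMP element TGACGTCA (0.944%) and the TATA box TATAAA (9.98%) were not in the 4 windows either, and no letter string searched contains another. These are matches of letters only and say nothing of whether a factor binds.

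Abundance was deposited as TPM, a share of all transcripts corrected for transcript length, so levels of different genes can be set side by side. In the 6 lean rats the order of the mean levels was Ppp3r1 (68.7 TPM), Mapk3 (48.5 TPM), Flot2 (42.5 TPM), Pld2 (24.7 TPM), Ppp1r3b (12.0 TPM) and Ppp3ca (5.35 TPM). Of the neighbours in that order, only Mapk3 and Flot2 had overlapping ranges in the lean rats, and they overlapped in the other 3 groups too. The order was the same in all 4 groups. Pld2 and Ppp1r3b overlapped in the obese and the obese + TT rats, and Flot2 and Pld2 in the lean control rats. Set against 15104 genes ranked in the lean rats, Ppp3r1 stood above 91.4% of them, Mapk3 above 88.2%, Flot2 above 86.5%, Pld2 above 78.6%, Ppp1r3b above 64.3% and Ppp3ca above 46.5%.

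All 10 marker genes of choroid plexus epithelium were detected in every group, among them the transthyretin gene Ttr, the klotho gene Kl and the folate receptor gene Folr1, so the tissue matched its label. Ttr alone took 31.2 to 39.0% of all transcripts in the lean rats, 32.3 to 39.3% among the obese rats, 27.2 to 30.5% among the lean control rats and 25.8 to 29.5% among the obese + TT rats. A larger Ttr share leaves less of the total for every other gene. Lean rat 6 and obese rat 10 had the highest Ttr shares of their groups, and each was the lowest of its group for 4 of the 6 genes. The values were therefore also computed with Ttr taken out of the total. The labels give a nominal output of 12 Gb of paired reads of 150 bases, but the read total of each library is not in the files used here, so no counting error can be given.

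**Figure D1:**
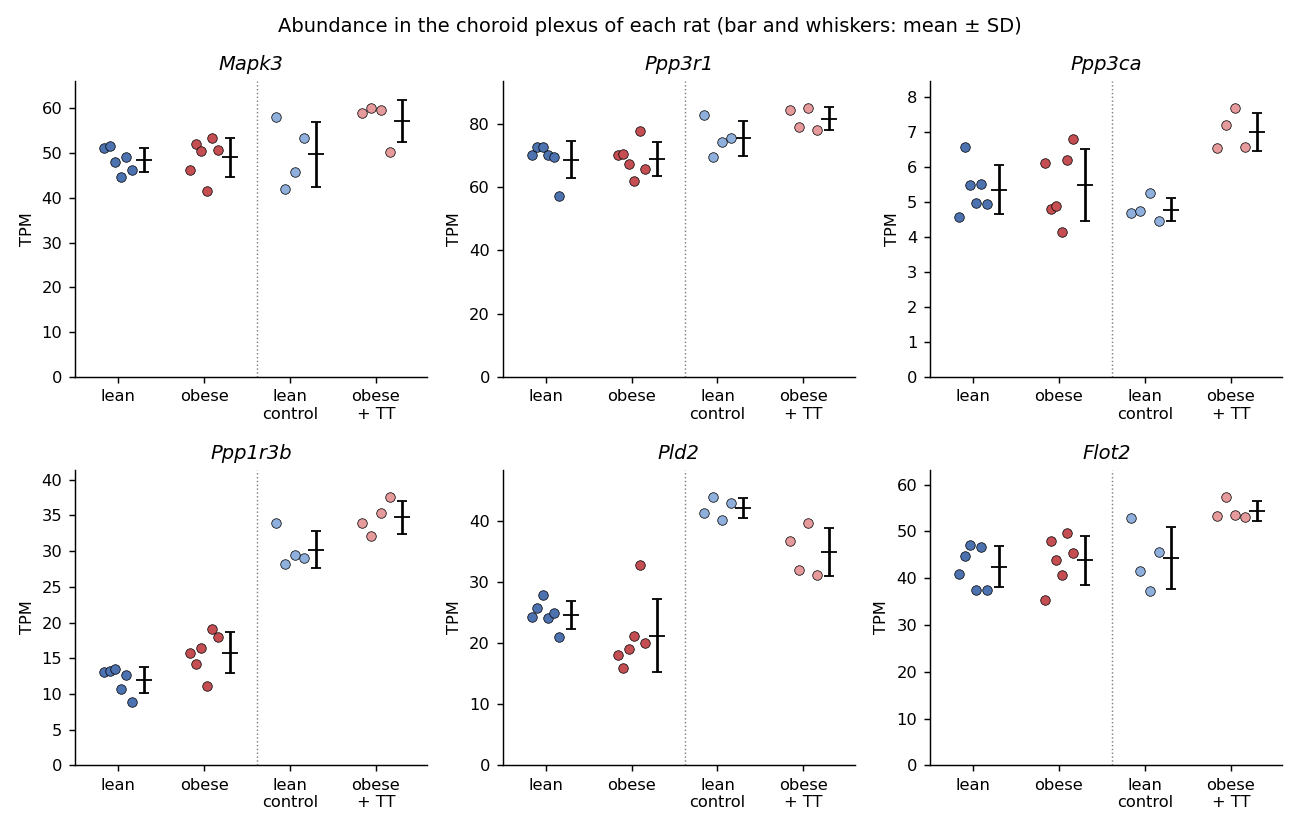
TPM of the 6 genes in each rat (points) of the 4 groups, with the group mean and SD (bar and whiskers) and a dotted line between the untreated and the injected cohort. Lean and obese untreated rats overlapped for all 6 genes, also for Ppp1r3b, where 5 of 6 obese rats lay above all lean rats, and all 8 injected rats lay above all 12 untreated rats for that gene.

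The genes came from calls in the injected cohort, though earlier results of these data were known when they were chosen. In the untreated cohort it was asked whether they differed between obese and lean rats. None of the 6 passed an adjusted p of 0.05 (limma, Benjamini-Hochberg over 15176 genes), a threshold that 0 of the 15176 genes passed (0%), with a lowest adjusted p of 0.0863. The study, testing read counts, did call genes in this contrast and in the injected one, where limma on TPM passed 0 in both. The count of 0 here is therefore not read as an absence of differences. At an unadjusted p under 0.05, 1466 genes (9.66%) passed, 5.91% with a higher and 3.75% with a lower mean in obese rats, and 1 of the 6, Ppp1r3b, was among those higher. No member separated the 6 obese from the 6 lean rats without overlap, as 0.54% of genes did. Differences are given between means of log2(TPM + 0.1). Mapk3, Ppp3r1, Ppp3ca and Flot2 had differences of at most 0.04 on this scale, beside a median of 0.02 over all genes tested. Ppp1r3b was 31.5% higher in the obese rats and Pld2 differed by -14.0%. In simulated data of this design, 48% of genes given a change of 0.5 on the log2 scale passed the adjusted threshold, and 4% of those given 0.25. The same simulation gave 50 genes a change of 1 and 50 a change of 2, which eases the adjusted threshold for the rest. In the rats themselves 0 genes passed, so the 48% is likely too high for these data.

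Mapk3 was at 44.7, 48.7 and 51.5 TPM (lowest, median and highest) in the 6 lean rats and at 41.6, 50.6 and 53.4 TPM in the 6 obese rats. The ranges of this kinase gene were nested, with obese rat 10 lowest of the 12. The means were 48.5 ± 2.69 (SD, n = 6) and 49.1 ± 4.40 TPM (SD, n = 6), a log2 difference of 0.01 (SE 0.07, 95% interval -0.13 to 0.16, limma adjusted p = 0.974). The exact two-sided permutation test gave p = 0.825. Mapk3 in the injected cohort, which chose the gene, was at 58.1, 41.9, 45.8 and 53.4 TPM among lean control rats 13 to 16 and at 59.1, 60.1, 59.6 and 50.3 TPM among obese + TT rats 17 to 20. The groups overlapped, since control rat 13 reached close to the highest obese + TT rats and rat 20 stood below 2 of the controls. The log2 difference there was 0.21 (SE 0.11), and 0.13 without control rat 14.

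Of 21 genes listed for the ERK cascade, 4 could be matched to a symbol, among them Map2k2, Araf and Ptpn11, and none passed the adjusted threshold in either cohort or an unadjusted p under 0.05. Symbols came from the study's tables, some of which list genes by their difference in these rats, so the matched genes of each list below are not a neutral sample of it. Map2k2, whose product MEK2 phosphorylates ERK1, was at 85.6 ± 6.17 and 87.7 ± 6.29 TPM in the untreated rats and at 82.6 ± 6.15 and 88.1 ± 8.74 TPM in the injected rats. Araf, a kinase gene one step further up, was at 40.4 TPM among lean and 41.8 TPM among obese rats (limma adjusted p = 0.823). The median log2 difference of the 4 genes was 0.03 in the untreated and 0.00 in the injected cohort, beside 0.02 and 0.01 over all genes tested.

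Ppp3r1, the calcineurin B gene and the most abundant of the 6, was at 57.1, 70.1 and 72.6 TPM (lowest, median and highest) in lean rats and at 61.9, 68.6 and 77.8 TPM among obese rats. Lean rat 6 stood apart at the low end, and the other lean rats lay between 69.6 and 72.6 TPM, inside the range of the obese rats. The log2 difference was 0.01 (SE 0.07, 95% interval -0.15 to 0.16, limma adjusted p = 0.991), and the exact two-sided permutation p was 0.933. Among injected rats Ppp3r1 was at 82.7, 69.5, 74.1 and 75.6 TPM among the lean control rats and at 84.3, 78.9, 85.1 and 78.1 TPM among the obese + TT rats. With rat 13 in the control group at 82.7 TPM, these groups overlapped as well. The log2 difference of 0.11 (SE 0.06) was the narrowest of the 6 in that contrast and was 0.076 without control rat 14, and the threshold the study applied to its counts could not be rebuilt from TPM.

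Ppp3ca, which encodes the catalytic subunit, was the least abundant of the 6. It was at 4.57, 5.24 and 6.58 TPM (lowest, median and highest) in lean rats and at 4.14, 5.51 and 6.80 TPM among obese rats. Obese rats thus lay at both ends, with means of 5.35 ± 0.70 and 5.50 ± 1.03 TPM (SD, n = 6 each). The log2 difference was 0.03 (SE 0.13, 95% interval -0.25 to 0.30, limma adjusted p = 0.975), and the exact two-sided permutation p was 0.851. Ppp3ca in the injected cohort was at 4.68, 4.74, 5.26 and 4.46 TPM among the lean control rats and at 6.56, 7.21, 7.70 and 6.59 TPM among the obese + TT rats. All 4 obese + TT rats were above all 4 controls. The obese + TT mean was 46.6% higher, or 0.54 on the log2 scale (SE 0.10), the widest difference among the 6 genes in the contrast that chose them.

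The 2 calcineurin subunit genes were also set against each other within each rat. Ppp3ca stood at 7.82 ± 0.96% of Ppp3r1 among lean rats and 7.97 ± 1.39% among obese rats (SD, n = 6 each). Among injected rats it stood at 6.37 ± 0.70% of Ppp3r1 among lean control rats and 8.60 ± 0.63% among obese + TT rats (SD, n = 4 each). Those last 2 groups did not overlap, with 5.66 to 7.09% against 7.78 to 9.14%, in a contrast that chose both genes. Calcineurin A has other catalytic forms whose genes were not analysed here, so the ratio covers the alpha form alone.

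Of 17 calcineurin pathway genes, 5 had a symbol, and none passed the adjusted threshold in either cohort. Of the 5, Nfatc4, which encodes an NFAT transcription factor, was higher in untreated obese rats at an unadjusted p of 0.00809 (limma adjusted p = 0.336), with no overlap, from 0.555 ± 0.11 to 0.848 ± 0.17 TPM (SD, n = 6 each). Nfatc4 in the injected cohort was at 0.193 and 0.185 TPM, a level too low to read a difference from. The calmodulin gene Calm2 and the immunophilin genes Fkbp1a and Ppia had unadjusted p-values above 0.05 in both cohorts. Calm2 was at 204 TPM among lean and 201.6 TPM among obese rats, and at 165.6 and 178.0 TPM in the injected rats.

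Ppp1r3b showed the widest difference of the 6 in the untreated cohort. It was at 8.87, 12.8 and 13.5 TPM (lowest, median and highest) in lean rats and at 11.1, 16.0 and 19.1 TPM among obese rats. Of the obese rats, 5 were above every lean rat, and obese rat 10, at 11.1 TPM, was the exception. The means were 12.0 ± 1.81 and 15.8 ± 2.87 TPM (SD, n = 6 each), a log2 difference of 0.39 (SE 0.14, 95% interval 0.10 to 0.68). The exact two-sided permutation p was 0.0281 and the unadjusted limma p was 0.0126, but the adjusted p was 0.379. With Ttr taken out of the total the log2 difference was 0.40 (limma adjusted p = 0.187, exact permutation p = 0.0173). The exact p stands for this gene alone and is not corrected for the 6 genes examined. Ppp1r3b in the injected cohort was at 34.0, 28.2, 29.4 and 29.0 TPM among the lean control rats and at 33.9, 32.0, 35.3 and 37.6 TPM among the obese + TT rats. Control rat 13 reached into the range of the obese + TT rats, and the other 3 controls lay below it. The log2 difference there was 0.20 (SE 0.08).

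Markers of red blood cells also had higher means in the untreated obese rats. Of 6 erythroid marker genes, 4 had a symbol, and all 4 (the globin genes Hba-a1, Hba-a2 and Hbb, and the anion exchanger gene Slc4a1) were higher at an unadjusted p under 0.05, with limma adjusted p-values from 0.241 to 0.490. Their summed level was 4259.6 ± 890.3 TPM among lean and 5551 ± 1128 TPM among obese rats (SD, n = 6 each), and 3474 ± 1590 and 6488 ± 1545 TPM among lean control and obese + TT rats (SD, n = 4 each). Hba-a1 was the most abundant of them, and it shares reads with its near-identical copy Hba-a2. Slc4a1 was at 0.183 TPM among lean and 0.483 TPM among obese rats. Among lean control and obese + TT rats it was at 0.218 and 0.71 TPM. The groups did not overlap for Slc4a1 in either cohort, as for 0.54% of all genes in the untreated and 4.02% in the injected rats. These levels are about as low as those of Nfatc4, so little is read from either gene in either cohort. Among all genes tested 9.66% passed an unadjusted p of 0.05, so nothing is read from the count of other markers that did. Of the 29 matched marker genes, 2 passed it besides the 4 erythroid genes, both with higher means in obese rats. One was the immune cell gene Cd74 (157.9 and 182 TPM, limma adjusted p = 0.415), and the other was the stromal collagen gene Col1a1 (4.92 and 7.23 TPM, limma adjusted p = 0.384). Of the 4 matched stromal genes 2, Dcn and Mgp, had lower means in obese rats, and the stromal sum was 848.6 ± 61.7 TPM in lean against 819.5 ± 160.3 TPM in obese rats. In bulk tissue more cells of a type and more RNA per cell cannot be told apart, and the part of these cells in the Ppp1r3b difference was not tested.

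Of 24 genes listed for protein phosphatase 1 and glycogen, 7 had a symbol and none passed the adjusted threshold in either cohort. The 3 catalytic subunits of the phosphatase were far more abundant than Ppp1r3b. Ppp1ca was at 106.7 ± 4.34 TPM among lean and 114 ± 6.33 TPM among obese rats (limma adjusted p = 0.610, n = 6 each), and at 100.03 ± 7.43 and 110.8 ± 3.98 TPM in the injected rats (unadjusted p 0.0382, limma adjusted p = 0.660, n = 4 each). Ppp1cb was at 87.7 and 93.6 TPM and Ppp1cc at 82.2 and 88.1 TPM among lean and obese rats. Each of the 3 had a higher mean in the obese group of both cohorts, by at most 0.15 on the log2 scale. Phkg2, a catalytic subunit gene of the glycogen phosphorylase kinase, was at 53.2 ± 4.30 TPM among lean and 48.0 ± 2.96 TPM among obese rats, a log2 difference of -0.15 (unadjusted p 0.0433, limma adjusted p = 0.505, n = 6 each). Among lean control and obese + TT rats Phkg2 was at 50.9 and 50.6 TPM (limma adjusted p = 0.981, n = 4 each). Pygm, the muscle-type glycogen phosphorylase gene, was at 35.6 and 31.3 TPM with an unadjusted p of 0.0640. The median log2 difference of the 7 genes was 0.06 in the untreated and 0.05 in the injected cohort.

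Pld2 was the 1 gene of the 6 with a lower mean in obese rats. It was at 21.0, 24.6 and 27.8 TPM (lowest, median and highest) in lean rats and at 16.0, 19.6 and 32.8 TPM among obese rats. Of the obese rats, 4 lay below every lean rat, rat 10 lay just inside the lean range at 21.2 TPM, and rat 11 lay above every lean rat. The means were 24.7 ± 2.26 and 21.2 ± 5.97 TPM (SD, n = 6 each), a log2 difference of -0.25 (SE 0.14, 95% interval -0.55 to 0.04, limma adjusted p = 0.610). The exact two-sided permutation p was 0.141. Without obese rat 11 the log2 difference was -0.38 (limma adjusted p = 0.186), which moves the value by over 1.5 times. Pld2 in the injected cohort was at 41.3, 44.0, 40.2 and 43.0 TPM among the lean control rats and at 36.7, 32.0, 39.6 and 31.2 TPM among the obese + TT rats. The 4 obese + TT rats were all below the controls, narrowly so for rat 19 at 39.6 TPM, and the log2 difference was -0.28 (SE 0.08).

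Of 16 genes listed for phospholipase D and phosphatidic acid, 4 had a symbol, and none passed the adjusted threshold or an unadjusted p under 0.05 in either cohort. Rala, which encodes a small GTPase that binds phospholipase D, was the gene of this list with the smallest p in both cohorts. It was at 44.3 ± 8.00 TPM among lean and 38.0 ± 5.00 TPM among obese rats, a log2 difference of -0.21 (limma adjusted p = 0.627, n = 6 each). In the injected rats it was at 33.3 ± 5.80 and 28.5 ± 2.83 TPM, again a log2 difference of -0.21 (limma adjusted p = 0.738, n = 4 each). The groups overlapped in both cohorts. Pld3, a member of the phospholipase D family found in lysosomes, was at 62.1 and 59.2 TPM among lean and obese rats and at 88.4 and 92.9 TPM among lean control and obese + TT rats.

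Flot2 was at 37.5, 42.9 and 47.2 TPM (lowest, median and highest) in lean rats and at 35.4, 44.6 and 49.6 TPM among obese rats. The lean range lay inside the obese range, and the means were 42.5 ± 4.38 and 43.8 ± 5.16 TPM (SD, n = 6 each). The log2 difference was 0.04 (SE 0.09, 95% interval -0.15 to 0.24, limma adjusted p = 0.928), and the exact two-sided permutation p was 0.658. Flot2 in the injected cohort was at 52.9, 41.6, 37.3 and 45.6 TPM among the lean control rats and at 53.4, 57.4, 53.4 and 53.0 TPM among the obese + TT rats. The groups were separated by the narrow gap between 52.92 TPM in control rat 13 and 53.04 TPM in obese + TT rat 20, and with Ttr taken out of the total they overlapped. The log2 difference was 0.30 (SE 0.10).

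Of 16 genes listed for flotillins and membrane rafts, 5 had a symbol and none passed the adjusted threshold in either cohort. Ehd2, which encodes an ATPase at the neck of caveolae, was higher in untreated obese rats at an unadjusted p of 0.00341 (limma adjusted p = 0.284), from 5.35 ± 0.79 to 8.00 ± 2.03 TPM (SD, n = 6 each). In the injected cohort it was at 2.67 ± 1.13 and 3.62 ± 0.23 TPM (SD, n = 4 each), a log2 difference of 0.52 (limma adjusted p = 0.717). Cavin1, which encodes a coat protein of caveolae, was at 59.5 ± 4.55 and 76.9 ± 27.7 TPM in the untreated rats (limma adjusted p = 0.610, n = 6 each). Stoml2 and Phb2, which encode mitochondrial proteins, and the membrane-bending gene Pacsin2 had unadjusted p-values above 0.05 in both cohorts.

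Set side by side, the log2 differences between obese and lean rats had the same sign in both cohorts for all 6 genes, positive for 5 and negative for Pld2. In the untreated cohort Mapk3, Ppp3r1 and Ppp3ca lay so near 0 that their sign turned when single rats were left out. The sign therefore carries little for these 3. Median-of-ratios scaling moved all 6 genes down alike, which turned the sign of Mapk3 and Ppp3r1 and decides nothing further. For Ppp1r3b, Pld2 and Flot2 the sign held under every alternative run, though Flot2 came down to 0.0049 without obese rat 11. In the injected cohort 3 of the 6, Ppp3ca, Pld2 and Flot2, separated the groups without overlap, where 4.02% of 15259 genes did (2.37% higher and 1.66% lower), but this contrast chose the genes and nothing is read from that count. Of the 15259 genes 0 passed the adjusted threshold there (limma, 0%), where 25 did without lean control rat 13 and 0 to 4 without any other single rat, and 1134 (7.43%) an unadjusted p under 0.05, with 4.25% higher and 3.19% lower in the obese + TT rats. Among marker genes at that unadjusted threshold, 3 of 4 erythroid genes and 2 of 2 astrocyte genes were higher and 2 of 3 mural cell genes were lower in the obese + TT rats. Lower there too were the epithelial prolactin receptor gene Prlr (263 and 171 TPM), the stromal gene Mgp, the neuronal gene Map2 and Cd74. Prlr had a limma adjusted p of 0.127, the lowest of the cohort and shared with the gene of smallest unadjusted p. Cd74 had a higher mean in untreated obese rats. The part of these marker genes in the differences of the 6 genes was not tested. Whether a gene differed more in one cohort than in the other was not tested, since one of the cohorts chose the genes.

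**Figure D2:**
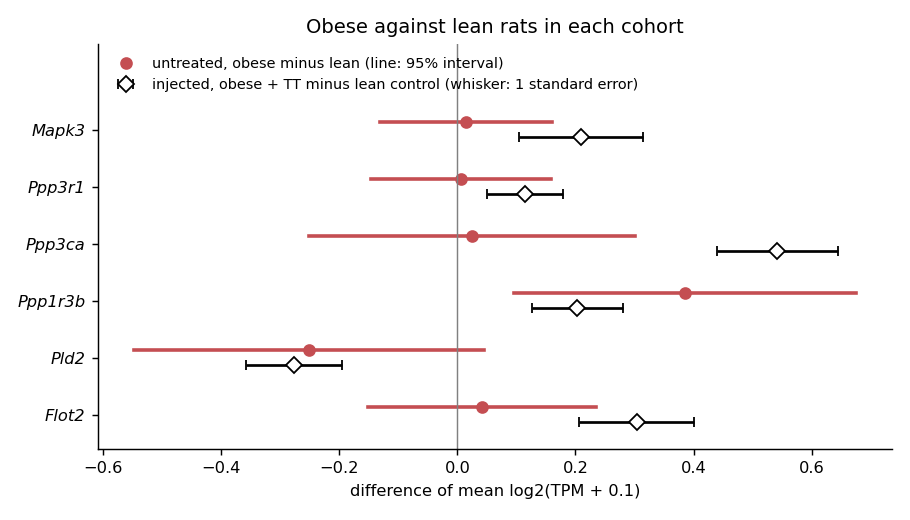
Difference of mean log2(TPM + 0.1) between obese and lean rats for the 6 genes, in the untreated cohort (filled circles, lines are 95% intervals, n = 6 per group) and the injected cohort (open diamonds, whiskers are 1 standard error, n = 4 per group). The untreated interval of Ppp1r3b runs from 0.10 to 0.68, those of the other 5 genes include 0, and the point of Ppp3ca moves from 0.03 to 0.54 between the cohorts.

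Levels in the injected rats were then set against those in the untreated rats of the same genotype. Lean control and lean rats differ in the oil injections and in cohort, and obese + TT and obese rats in testosterone as well, which cannot be told apart, so the values are a description. Ppp1r3b stood out, with 8.87 to 19.1 TPM in the 12 untreated rats and 28.2 to 37.6 TPM in the 8 injected rats. Oil-injected lean control rats were 2.52-fold above lean rats, and obese + TT rats 2.20-fold above obese rats. These folds exceeded those of 94.0% and 91.0% of 15406 genes. Complete separation upward was common, since 25.1% of genes had all injected above all untreated rats, and 7.05% had all of them below. Pld2 was 1.71-fold higher in lean control than in lean rats, without overlap, as 33.9% of genes were, and 1.65-fold higher in obese + TT than in obese rats, where obese rat 11 alone overlapped. Those folds lay above 78.9% and 78.3% of genes.

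The other 4 genes lay nearer to the bulk of the transcriptome. The median log2 difference between cohorts over all genes was 0.24 in both comparisons, and Mapk3, Ppp3r1, Ppp3ca and Flot2 lay at 0.03, 0.14, -0.15 and 0.06 in lean control against lean rats. Single rats moved these values, Ppp3r1 to 0.085 without lean rat 6 and Ppp3ca to -0.091 without lean rat 2, and Mapk3 and Flot2 to below 0 without lean control rat 13. In obese + TT against obese rats they lay at 0.22, 0.25, 0.36 and 0.32. Ppp3r1 and Flot2 separated those groups on TPM, as 34% of genes did, but not with Ttr taken out of the total. With median-of-ratios scaling, which set the median of all genes to -0.03 and -0.02, the signs of Mapk3 and Ppp3r1 turned negative in both comparisons, that of Flot2 in lean control against lean rats, and Ppp3ca in that comparison lay at -0.44. With Ttr taken out of the total, Mapk3 and Flot2 lay at -0.08 and -0.05 in lean control against lean rats. Ppp1r3b kept folds of 2.07 and 1.82 and Pld2 folds of 1.40 and 1.36 with median-of-ratios scaling.

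**Figure D3:**
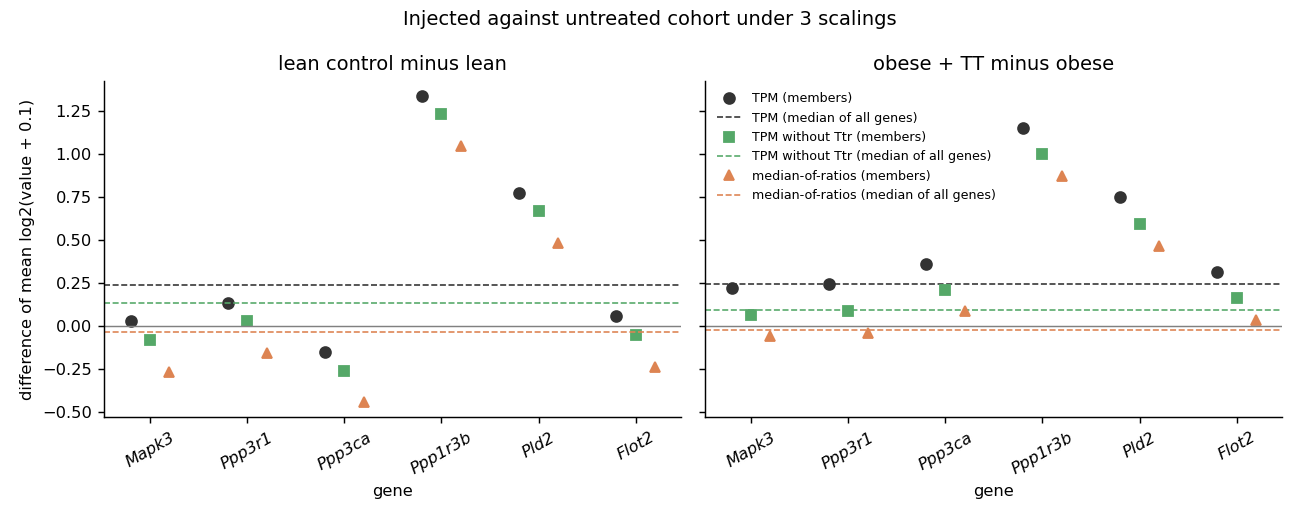
Difference of mean log2(value + 0.1) between injected and untreated rats, lean control against lean (left) and obese + TT against obese (right), for the 6 genes under 3 scalings (symbols), with the median of all genes under each scaling as a dashed line. Ppp1r3b and Pld2 lie above the dashed line of their scaling in both panels, and Ppp3ca lies below it on the left and above it on the right.

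Cell type markers differed widely between the cohorts. The 4 stromal fibroblast genes with a symbol, of 8 listed, summed to 848.6 ± 61.7 TPM among lean, 819.5 ± 160.3 TPM in obese, 107 ± 13.2 TPM among lean control and 91.9 ± 10.3 TPM among obese + TT rats. Mgp, the most abundant of them, was at 726 TPM among lean and 30.8 TPM among lean control rats, while Pdgfra stood at 25.4 and 65.1 TPM. The endothelial gene Plvap, the 1 gene of 8 with a symbol, was at 45.6, 49.96, 5.25 and 4.66 TPM in the same order of groups. The mural cell sum (3 of 6 genes, Rgs5 the most abundant in untreated rats) was 163, 182, 16.7 and 10.6 TPM, and the immune cell sum (2 of 8 genes, Lyz2 the most abundant) was 454.6, 491.7, 201 and 149 TPM. The epithelial sum (10 of 10 genes, nearly all of it Ttr) was 350835, 358086, 302957 and 287729 TPM. Of the 10, Ttr and Igfbp2 had lower means in the injected cohort in both genotypes and the other 8 had higher means, among them Kl at 413, 429.7, 895.6 and 953 TPM. The neuronal gene Map2 (1 of 12 genes) was at 30.2, 27.8, 81.7 and 74.4 TPM. The astrocyte sum (2 of 8 genes, Glul the most abundant) was 137, 133.6, 125.9 and 143 TPM, and the ependymal sum (2 of 6 genes, Dynlrb2 the most abundant) was 231.7, 243.6, 218.5 and 229.8 TPM. None of the matched marker genes was at 0 in all rats of a group. So the stromal (Mgp above all, with Pdgfra the exception), vascular and immune marker sums were lower in the injected rats, in which Ppp1r3b and Pld2 were higher, and the part of the tissue's make-up in those differences was not tested.

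Within the groups, the 6 genes varied to different degrees from rat to rat. In lean rats the coefficient of variation was 5.54% for Mapk3, 8.46% for Ppp3r1, 9.16% for Pld2, 10.3% for Flot2, 13.1% for Ppp3ca and 15.1% for Ppp1r3b. Lean rat 6 was the lowest lean rat for Ppp3r1, at 57.14 TPM against 69.55 to 72.63 TPM, and for Ppp1r3b. Coefficients of variation without this rat were not computed. Without it the untreated log2 difference was -0.046 for Ppp3r1, with its sign turned, and 0.30 for Ppp1r3b. The order was another in other groups, with Mapk3 at 14.6% in lean control rats and Ppp1r3b at 6.79% in obese + TT rats. Pld2 in obese rats varied most, at 28.2%, through rat 11. In the injected cohort, lean control rat 13 was the highest of its group for Mapk3, Ppp3r1, Ppp1r3b and Flot2.

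To describe which genes varied together, each group's mean was subtracted and Pearson correlations were taken over the 20 rats, with the 2567 genes that had a symbol and a mean of at least 1 TPM. These are not a neutral sample of all genes, and Map2k1 was not among them. A gene named below is thus the closest of the 2567 only. The rats share the Ttr share of their libraries, which correlated with the 6 genes at r from -0.34 for Ppp3ca to -0.74 for Ppp3r1, so the correlations were also taken with Ttr out of the total. Mapk3 was most like Map2k2 (r = 0.85, or 0.80 without Ttr in the total, and first in both), the kinase gene directly above it in the cascade. It was followed by the transcription factor gene Usf2 (r = 0.81) and the condensin gene Ncapd3 (r = 0.80), where the median over all genes was 0.27. Without Ttr in the total those 2 were at 0.78 and 0.77, and the median at 0.05. Flot2 was most like Lrpap1 (r = 0.89), which encodes a chaperone of lipoprotein receptors, the tetraspanin gene Tspan13 (r = 0.86) and the receptor phosphatase gene Ptpra (r = 0.86), all 3 at 0.82 and in the first 3 places without Ttr in the total. Pld2 was most like Arhgef18 (r = 0.90), a guanine nucleotide exchange factor gene, Scara5 (r = 0.87), a ferritin receptor gene, and Ash2l (r = 0.87), a subunit gene of histone methyltransferases. The Pld2 values leaned on obese rat 11, without which they were 0.76, 0.71 and 0.72. With all rats but Ttr out of the total they were 0.87, 0.85 and 0.83, in places 1, 2 and 5.

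Ppp3r1 was most like Ube2j2 (r = 0.84), Lgmn (r = 0.83) and Tax1bp1 (r = 0.81), which encode a ubiquitin-conjugating enzyme, a lysosomal protease and an autophagy adaptor. Tax1bp1 was also nearest to Ppp1r3b (r = 0.86), ahead of the chaperone gene Dnaja2 (r = 0.85) and the nucleolar gene Noc2l (r = 0.83). With Ttr taken out of the total Lgmn came first for Ppp3r1 (r = 0.77), Ube2j2 stood at place 5 (r = 0.70) and Tax1bp1 at place 48 (r = 0.58). Without lean rat 6, Ube2j2 was at 0.70 on TPM. For Ppp1r3b, Noc2l came first without Ttr in the total (r = 0.72), Dnaja2 stood at place 4 (r = 0.71) and Tax1bp1 at place 7 (r = 0.67). Ppp3ca was most like Pdpn (r = 0.82), the podoplanin gene, Map7d1 (r = 0.81), a microtubule-associated protein gene, and the translation factor gene Eif4h (r = 0.80), which without Ttr in the total were at 0.80, 0.78 and 0.72, in places 1, 2 and 12. Among the 6 themselves the closest pairs were Ppp3r1 with Ppp1r3b (r = 0.74) and Mapk3 with Flot2 (r = 0.70), and without Ttr in the total these were 0.53 and 0.61. The calcineurin subunits Ppp3r1 and Ppp3ca were at r = 0.36, or 0.17 without Ttr in the total, and Ppp3ca and Flot2 at 0.12 or -0.04.

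**Figure D4:**
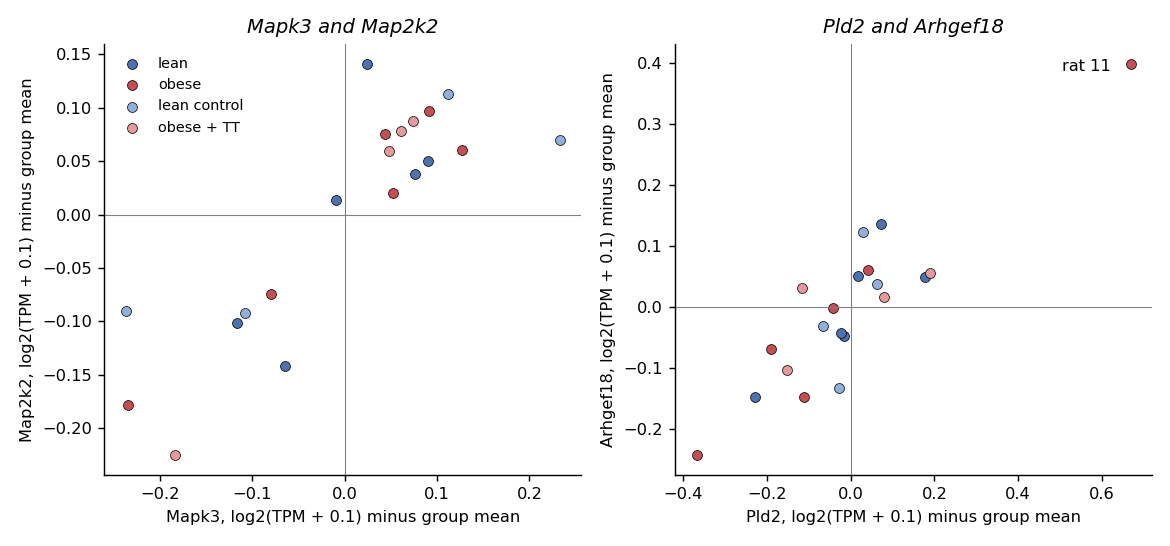
Log2(TPM + 0.1) minus the group mean in each of the 20 rats, for Mapk3 against Map2k2 (left) and Pld2 against Arhgef18 (right), coloured by group. The Mapk3 points spread over all groups along 1 direction (r = 0.85), and the Pld2 relation (r = 0.90) has obese rat 11 at its far end and falls to 0.76 without it.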

How the data were processed

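Choroid plexus RNA of 20 rats was sequenced as paired-end libraries. Per the labels, the authors' processing notes name STAR 2.7.9a and RSEM 1.3.3 and the build Rnor_6.0, and deposited TPM and FPKM per Ensembl gene and rat. Rat numbers run from 1 to 20. TPM was used, FPKM as an alternative. The study's own test on counts could not be repeated, since the values hold no whole reads. Groups were taken from the titles, and no 2 libraries of a group held identical TPM in more than 2.11% of genes. Obese and lean rats were compared within each cohort with limma 3.58.1 (R 4.3.3, trend in eBayes) on log2(TPM + 0.1), over genes whose mean reached 0.1 TPM, with Benjamini-Hochberg adjustment. The script was tested on simulated data. Fold changes on this scale understate those of low genes. Single genes in the untreated cohort had an exact permutation test. The 6 genes were not tested in the injected cohort, which chose them. Named genes were the 6, listed paralogs and partners, each list's gene of smallest p in a cohort and the 3 genes most like each member. Of 94 pathway genes 25 and of 80 marker genes 29 had a symbol, and no oligodendrocyte marker had one. Some listed genes are not reported here. Astrocyte and ependymal markers were summed as well. The genes and lists were chosen with earlier results of these data known. Alternatives were other pseudocounts, filters, variance models, FPKM, Ttr taken out of the total, median-of-ratios scaling, 1 fit of all rats and leaving out each rat.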

Additional observations from a re-analysis of the deposited data

Results flagged for a closer look

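In the 24 combinations of the 6 genes and 4 groups, 4 rats stood apart from the rest of their group by Dixon's test, where chance gives about 1 in 20, or 1.2. Obese rat 11 was at 32.83 TPM for Pld2, and the other obese rats lay between 15.98 and 21.23 TPM. Lean rat 6 was at 57.14 TPM for Ppp3r1, below 69.55 to 72.63 TPM in the other lean rats. With Ttr taken out of the total, of which this rat had the largest share among the lean rats, it was at 93.7 and the others between 101 and 109.5. Obese + TT rat 20 was at 50.29 TPM for Mapk3, below 59.06 to 60.12 TPM in the other 3 rats. Obese + TT rat 18 was at 57.44 TPM for Flot2, above 53.04 to 53.43 TPM in the other 3 rats. With Ttr taken out of the total, Flot2 in rat 18 was the only 1 of the 4 that still stood apart by this test. No cause of these values was tested.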

How the results depend on the processing

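No paired analysis was possible because the rat numbers 1 to 20 each occur once. None of the 6 genes passed an adjusted p of 0.05 in the untreated cohort under any of the 9 other settings or the 12 fits without 1 rat (limma), and the lowest values were 0.167 for Ppp1r3b with median-of-ratios scaling and 0.186 for Pld2 without rat 11. With median-of-ratios scaling the untreated log2 difference was -0.0043 for Mapk3 and -0.013 for Ppp3r1, and without single rats it ran from -0.011 to 0.062 for Mapk3, -0.046 to 0.036 for Ppp3r1 and -0.039 to 0.10 for Ppp3ca. Without single rats it ran from 0.30 to 0.48 for Ppp1r3b, -0.38 to -0.18 for Pld2 and 0.00 to 0.10 for Flot2. The count of genes passing in the untreated cohort was 1 with FPKM, 1 with median-of-ratios scaling, 3 with all 20 rats in 1 fit and 0 to 1 without single rats. In the injected cohort it was 2 with median-of-ratios scaling, 6 with all rats in 1 fit and 0 to 25 without single rats, with 25 reached without lean control rat 13. Without single rats the injected log2 difference ran from 0.13 to 0.29 for Mapk3, 0.076 to 0.16 for Ppp3r1, 0.50 to 0.59 for Ppp3ca, 0.16 to 0.26 for Ppp1r3b, -0.34 to -0.23 for Pld2 and 0.22 to 0.39 for Flot2.

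The scalings across cohorts were chosen after seeing the data. With median-of-ratios scaling, lean control minus lean was -0.26 for Mapk3, -0.16 for Ppp3r1, -0.44 for Ppp3ca, 1.05 for Ppp1r3b, 0.48 for Pld2 and -0.24 for Flot2, and obese + TT minus obese was -0.059, -0.037, 0.086, 0.87, 0.47 and 0.036 in the same order. With Ttr taken out of the total, Pld2 was at 0.67 in lean control minus lean, and obese + TT minus obese was 0.068 for Mapk3, 0.091 for Ppp3r1 and 0.16 for Flot2. Without single rats, lean control minus lean ran from -0.05 to 0.11 for Mapk3, 0.085 to 0.18 for Ppp3r1, -0.20 to -0.091 for Ppp3ca, 1.25 to 1.37 for Ppp1r3b, 0.73 to 0.81 for Pld2 and -0.03 to 0.14 for Flot2. In obese + TT minus obese no single rat moved a value by over 1.5 times. Causes of these shifts were not tested. In data simulated with 4 to 6 rats per group, 4% of untreated and 2% of injected genes given a change of 0.25 on the log2 scale passed. Most differences of that size would thus be missed here. Read totals per library were not available.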
